A study of Mus musculus with 10 samples.

Results

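The genes described here handle glutathione, peroxides and superoxide, or govern that defence through the transcription factor NRF2. They were chosen by name: the glutathione S-transferases, glutathione peroxidases, peroxiredoxins, superoxide dismutases and thioredoxin reductases, together with 12 single genes (Gclc, Gclm, Gsr, Gss, Nqo1, Hmox1, Srxn1, Txn1, Txn2, Cat, Nfe2l2 and Keap1). Names chose the genes, and each gene was read from the brightest of its probe sets by mean level. The rule found 52 of the 18193 genes that the arrays name through a probe set with 1 symbol, and 48 of the 52 had a value over 4 (log2) on at least 4 arrays and were tested. Expression was measured on Affymetrix arrays in total RNA of the aorta of male C57BL/6 mice that were either wild type or Ptgds-/-. Ptgds encodes lipocalin-type prostaglandin D synthase, and the labels name no tissue restriction of the knockout, no age and no C57BL/6 substrain. Values exist for 4 wild type aortas (replicates 1, 3, 4 and 5) and 5 knockout aortas (replicates 1 to 5), which the labels call biological replicates, and the precision of all values below is limited by how few arrays there are. A further wild type sample, replicate 2, was set aside by its label and is not analysed here. Mice of both genotypes were housed in groups on chow.

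Ptgds itself stood at 9.11, 10.31, 8.79 and 8.68 in wild type and at 3.86, 3.92, 3.76, 3.67 and 4.40 in knockout aortas. The difference of −5.30 (SE 0.32), knockout minus wild type, passed the threshold (limma, adjusted p 0.000588), and Ptgds was low on every knockout array. The median over all probe sets was 5.88 to 5.97 on each array. All 7 smooth muscle markers examined, among them Acta2 and Myh11, were over the floor, with means per array of 12.52 to 12.74 in wild type and 12.72 to 12.77 in knockout aortas. Of these, 6 were higher and 1 lower, 3 and 1 of them at an unadjusted p under 0.05, and wild type replicate 3 was the lowest array, as it was for Gstm2 and Gstt3 below; their part in the results was not tested. Other cells were on the arrays too. The mean of 8 sympathetic neuron markers was 10.62 on wild type replicate 3 and 8.74 on knockout replicate 1, against 4.56 to 7.21 on the other arrays, and the mean of 5 fast skeletal muscle markers was 10.12 on knockout replicate 3 against at most 5.09 elsewhere. Endothelial markers were lower in 7 of 7, 3 of them at an unadjusted p under 0.05 (limma). Their means per array were 9.09 to 9.57 in wild type and 8.89 to 9.20 in knockout aortas. The part of endothelium in the results was not tested. Adipocyte and macrophage markers are given further below.

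Glutathione is a tripeptide made from glutamate, cysteine and glycine by glutamate-cysteine ligase (a catalytic and a modifier subunit, Gclc and Gclm) and glutathione synthetase (Gss). Glutathione peroxidases spend it to reduce peroxides, the transferases couple it to electrophiles and lipid products, and glutathione reductase (Gsr) returns it to the reduced form with NADPH. Peroxiredoxins do the same work with electrons from thioredoxin and thioredoxin reductase, and superoxide dismutases supply the hydrogen peroxide that catalase and the peroxidases remove. Under oxidants or electrophiles NRF2 (Nfe2l2) escapes its adaptor KEAP1, pairs with small MAF proteins and binds antioxidant response elements of genes such as Nqo1, Hmox1, Srxn1, Txnrd1 and Gclm. In arteries these enzymes limit the loss of nitric oxide to superoxide.

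The core of the antioxidant response element, written TGACNNNGC, was looked for on both strands of the promoter windows given by RefSeq on GRCm38.p6, which run from 250 bases before to 50 after a gene's start. Such a window was found by symbol for 46 of the 52 genes, and 9 of them (19.6%) held the core, against 14.0% of all 27025 genes with a window. The core shares its opening TGAC with the AP-1 element TGACTCA. The cores of 5 of these 9 genes are shown, and Gsta3, Gstm5, Mgst1 and Sod1 held one too. Txnrd1 and Gstm7 also have windows without the core. The windows of Gstm1, Gstm2, Gstt3, Gstt4, Prdx3 and Nqo1 held none, and no window was found for Hmox1. Whether the core goes with a difference between genotypes was not tested. Capitals mark the core, which reads GCNNNGTCA where it lies on the opposite strand.
Nfe2l2 (chr2:75704869-75704913, minus strand): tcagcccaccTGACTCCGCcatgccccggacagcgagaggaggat
Srxn1 (chr2:152105542-152105570, plus strand): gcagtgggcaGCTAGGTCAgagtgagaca
Txnrd1 (chr10:82859088-82859148, plus strand): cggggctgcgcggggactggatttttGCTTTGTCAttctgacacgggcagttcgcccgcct
Gclm (chr3:122245397-122245457, plus strand): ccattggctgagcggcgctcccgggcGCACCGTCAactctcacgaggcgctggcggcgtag
Gstm7 (chr3:107931709-107931769, minus strand): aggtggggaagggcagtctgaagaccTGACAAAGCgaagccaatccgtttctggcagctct
The core began 28 bases after the start of Srxn1, where fewer bases are shown, and 240, 92, 134 and 129 bases before the given starts of Nfe2l2, Txnrd1, Gclm and Gstm7. These letters are a match in a short window, and enhancers further away were not read.

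The comparison asks which of these genes differ between aortas with and without lipocalin-type prostaglandin D synthase. No member passed an adjusted p of 0.05 in limma, where 0.0559% of all 14321 tested genes did; the lowest adjusted p among the members was 0.131. At an unadjusted p under 0.05 there were 4 members higher in the knockout (Gstm1, Gstm2, Gstm7 and Gstt3; 8.33% of 48, against 12.8% of all tested genes) and 5 lower (Hmox1, Srxn1, Txnrd1, Prdx3 and Gstt4; 10.4%, against 7.12%). The groups did not overlap for 4 members that were higher (Gstm1, Gstm2, Gstt3 and Gstp1), where 4.59% of all tested genes behaved so, and for Srxn1 alone among those lower, where 2.16% did. The median difference was −0.047 over the members and 0.027 over all tested genes, and 22 members were higher and 26 lower. The members' shares lie near those of the whole array. In whole tissue, fewer cells of a type and less RNA per cell cannot be told apart.

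**Figure D1:**
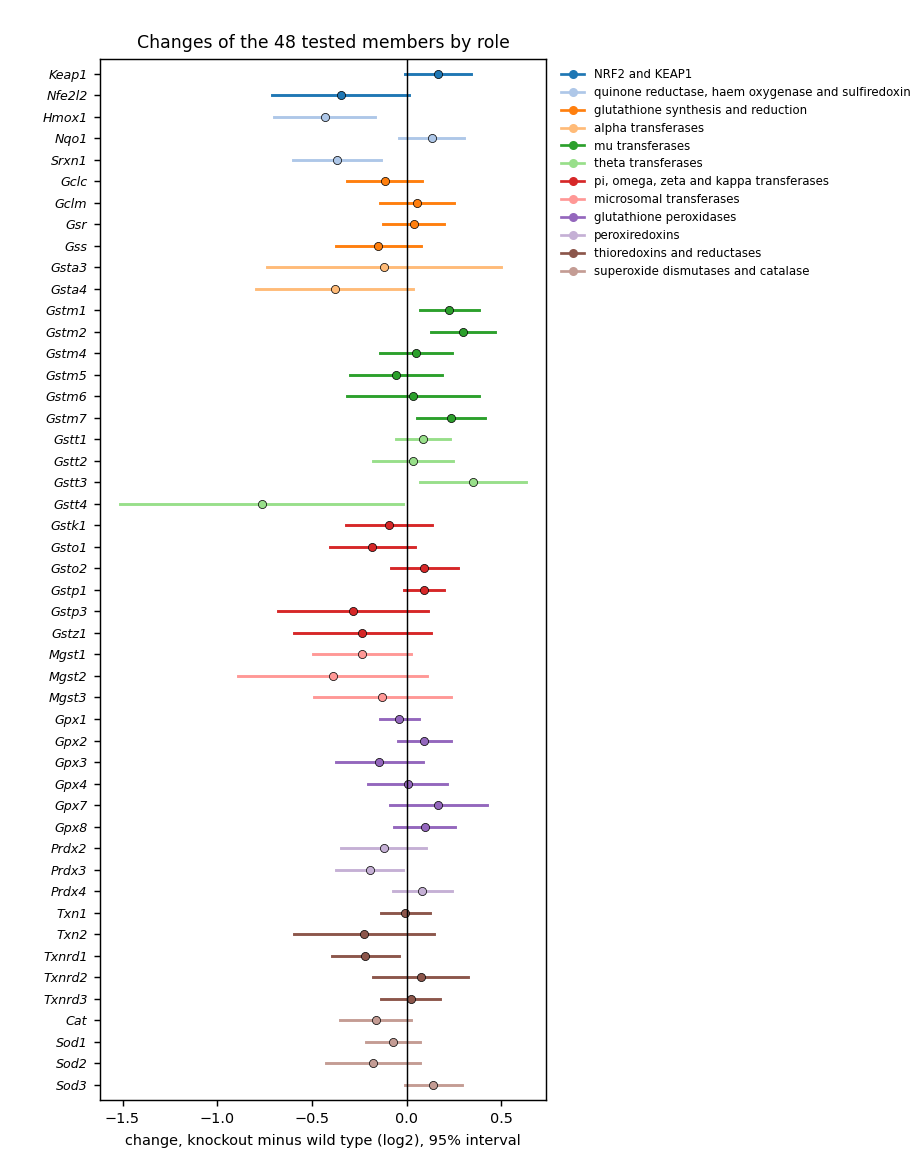
Difference of each of the 48 tested members (knockout minus wild type, log2) with its 95% interval from limma, coloured by role. The intervals of Gstm1, Gstm2, Gstm7 and Gstt3 lie above 0 and those of Hmox1, Srxn1, Txnrd1, Prdx3 and Gstt4 below it, while 0 members passed an adjusted p of 0.05.

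Nfe2l2, the gene of NRF2, stood at 10.59, 11.13, 11.21 and 11.23 in wild type and 10.60, 10.50, 10.64, 11.08 and 10.64 in knockout aortas. In all further listings of values the arrays are in the same order of replicates, 1, 3, 4 and 5 of the wild type before 1 to 5 of the knockout. Wild type replicate 1 lay among the knockout arrays and knockout replicate 4 near the other wild type arrays, so the groups overlapped. The difference was −0.35 (SE 0.16), with a 95% interval of −0.71 to 0.015 and an adjusted p of 0.266 (limma). Without wild type replicate 1 it was −0.50, with an adjusted p of 0.0535 (limma). A dimmer probe set of the gene showed a difference of −0.0052 (SE 0.29), so the lower values rest on 1 of 2 probe sets.

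Keap1, whose protein holds NRF2 for degradation, stood at 9.32, 9.06, 9.26 and 9.07 in wild type and 9.37, 9.41, 9.44, 9.28 and 9.21 in knockout aortas. Its difference was 0.17 (SE 0.078), with an adjusted p of 0.275 (limma), and the groups overlapped. Its other probe set, at a level near the floor, went the other way at −0.22 (SE 0.093).

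Sulfiredoxin and haem oxygenase, both known NRF2 targets, gave the lowest p-values among the members that were lower. Srxn1, which repairs over-oxidised peroxiredoxins, stood at 9.47, 9.72, 9.41 and 9.35 in wild type and 9.31, 9.11, 9.23, 9.05 and 8.90 in knockout aortas. Every knockout array lay below every wild type array, with the lowest wild type value at 9.35 and the highest knockout value at 9.31. The difference was −0.37 (SE 0.10), or 1.29-fold lower, with a 95% interval of −0.60 to −0.14 and an adjusted p of 0.14 (limma). All 4 probe sets of Srxn1 were lower, at −0.28 to −0.37, and on 3 of them the groups did not overlap.

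Hmox1, which breaks haem down to biliverdin, iron and carbon monoxide, stood at 8.11, 8.01, 7.75 and 8.33 in wild type and 7.78, 7.48, 7.68, 7.66 and 7.48 in knockout aortas. The groups met only at their edges, with wild type replicate 4 at 7.75 below knockout replicate 1 at 7.78. Its difference was −0.43 (SE 0.12), 1.35-fold lower, with a 95% interval of −0.70 to −0.16 and an adjusted p of 0.136 (limma). The mean of 7 macrophage markers was 9.50, 9.59, 8.83 and 9.93 in wild type and 9.32, 9.22, 9.27, 9.06 and 9.12 in knockout aortas. All 7 were over the floor and lower, 0 of them at an unadjusted p under 0.05 (limma). Wild type replicate 4 was the lowest wild type array for them as for Hmox1. For the markers it also lay below every knockout array, while for Hmox1 it lay above every knockout array but replicate 1. The markers' part in the values of Hmox1 was not tested.

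Nqo1, a quinone reductase often read as a marker of NRF2 activity, was not lower. It stood at 8.70, 8.50, 8.82 and 8.79 in wild type and 8.85, 8.78, 8.80, 8.79 and 8.94 in knockout aortas, and the groups overlapped. The difference was 0.13 (SE 0.076), with an interval of −0.039 to 0.30 and an adjusted p of 0.36 (limma), so a difference as large as that estimated for Srxn1 in the lower direction lies outside its interval. Without wild type replicate 3, its lowest array, the difference was 0.064.

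**Figure D2:**
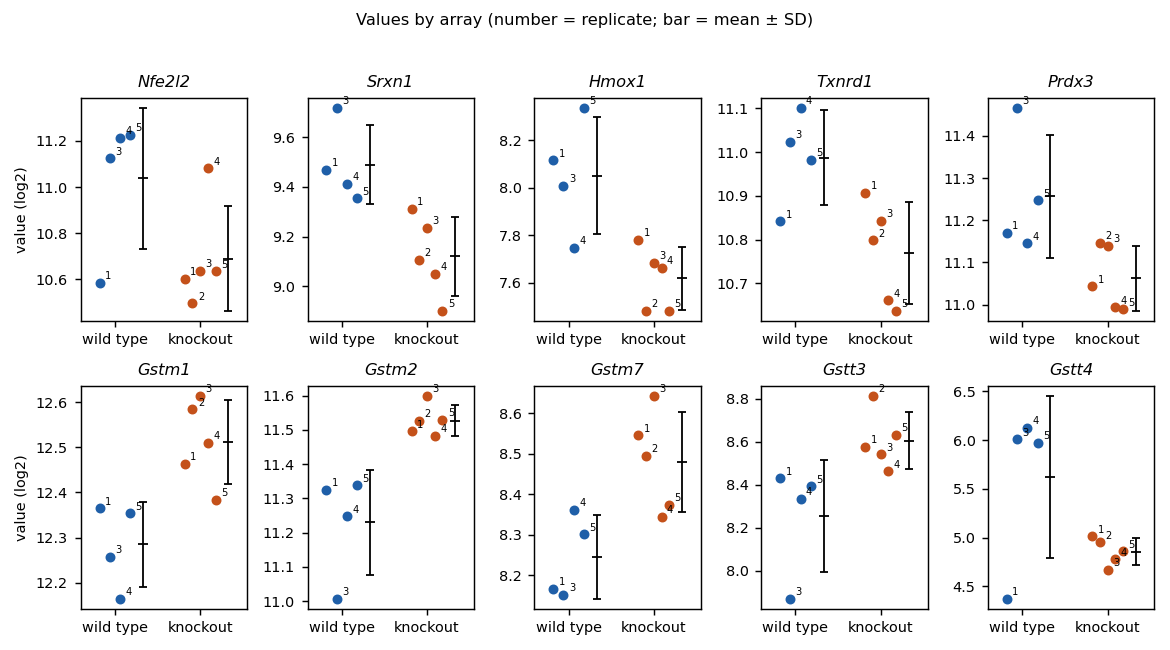
Deposited log2 values of 10 members on each array, with the replicate number beside each point and a bar for the mean ± SD of 4 wild type and 5 knockout arrays; each panel has its own axis, which does not start at 0. Srxn1 was lower, and Gstm1, Gstm2 and Gstt3 were higher, on every knockout array than on any wild type array, while wild type replicate 1 stood apart from its group for Nfe2l2 and Gstt4.

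None of the 4 genes that make and recycle glutathione had an unadjusted p under 0.05 on its brightest probe set (limma). Gclc, the catalytic subunit of the rate-limiting ligase, stood at 9.28, 9.66, 9.44 and 9.54 in wild type and 9.46, 9.20, 9.31, 9.45 and 9.41 in knockout aortas. Gclm, its modifier subunit, stood at 8.70, 8.70, 8.70 and 8.60 in wild type and 8.88, 8.54, 8.88, 8.57 and 8.78 in knockout aortas. Both sets of arrays overlapped, with differences of −0.12 (SE 0.089) for Gclc and 0.056 (SE 0.086) for Gclm and adjusted p-values of 0.489 and 0.747 (limma).

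The second, dimmer probe set of Gclm showed −0.26 (SE 0.098) (limma, adjusted p 0.207 over all tested probe sets), opposite in sign to the brighter one. The direction of Gclm thus depended on the probe set. Dimmer probe sets of Gclc and Gss were lower, at −0.21 (SE 0.10) and −0.19 (SE 0.11), and that of Gsr showed −0.014 (SE 0.11).

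Gss, which adds glycine to complete glutathione, stood at 7.89, 8.24, 8.02 and 8.27 in wild type and 7.91, 7.87, 7.97, 8.16 and 7.87 in knockout aortas, a difference of −0.15 (SE 0.099) with an adjusted p of 0.427 (limma). Gsr stood at 10.99, 10.82, 10.84 and 10.90 in wild type and 11.08, 10.79, 10.95, 10.96 and 10.85 in knockout aortas, a difference of 0.037 (SE 0.072) with an interval of −0.12 to 0.20. Arrays of both genotypes interleaved for Gss and for Gsr.

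The mu class of glutathione S-transferases held 3 of the 4 members that were higher at an unadjusted p under 0.05. Gstm1 stood at 12.36, 12.26, 12.16 and 12.35 in wild type and 12.46, 12.58, 12.61, 12.51 and 12.38 in knockout aortas. Gstm2 stood at 11.33, 11.01, 11.25 and 11.34 in wild type and 11.50, 11.53, 11.60, 11.48 and 11.53 in knockout aortas. For both genes every knockout array lay above every wild type array, though for Gstm1 only narrowly, at 12.38 against 12.36.

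Gstm2 had a difference of 0.30 (SE 0.075), 1.23-fold higher, with an interval of 0.13 to 0.47 and an adjusted p of 0.131, and Gstm1 one of 0.23 (SE 0.069) with an interval of 0.070 to 0.38 and an adjusted p of 0.15 (limma). All 4 probe sets of Gstm1 were higher, by 0.23 to 0.29. Wild type replicate 3, the array with most neuronal transcripts, was the lowest for Gstm2, and without the 2 arrays richest in them (wild type replicate 3 and knockout replicate 1) the differences were 0.23 for Gstm2 and 0.23 for Gstm1.

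Gstm7 is named because it completes the count of 4, having been picked after its values were seen. It stood at 8.17, 8.15, 8.36 and 8.30 in wild type and 8.55, 8.49, 8.64, 8.34 and 8.37 in knockout aortas, a difference of 0.24 (SE 0.079) with an adjusted p of 0.171 (limma), and the highest wild type value, 8.36, lay just above the lowest knockout value, 8.34. Gstm4, Gstm5 and Gstm6 had differences of 0.051, −0.056 and 0.034 (log2). Gstm3 did not reach the floor on enough arrays, with values of 3.15 to 3.80. The 7 mu genes lie together on mouse chromosome 3, in the order Gstm5, Gstm7, Gstm6, Gstm3, Gstm2, Gstm1 and Gstm4 on GRCm38.p6. Of the 3 with intervals above 0, Gstm2 and Gstm1 are neighbours. Between them and Gstm7 lie Gstm3 and Gstm6, and Gstm6 was near the floor, at 3.76 to 4.64. Such dim genes can hardly show a difference, so whether the higher genes form a single run could not be told. The sequences of the mu genes are close. The brightest Gstm1 probe set carries the suffix that Affymetrix uses for probes that can bind relatives. Signal could thus not be fully assigned to single mu genes.

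Among the tested members, Gstt3 and Gstt4 of the theta class had the largest differences in either direction. Gstt3 stood at 8.43, 7.87, 8.33 and 8.39 in wild type and 8.58, 8.81, 8.54, 8.46 and 8.63 in knockout aortas. Every knockout array lay above every wild type array, and wild type replicate 3 was far below the rest. The difference was 0.35 (SE 0.12), 1.27-fold higher, with an interval of 0.070 to 0.63 and an adjusted p of 0.183 (limma); it was 0.23 without the 2 arrays richest in neuronal transcripts.

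Gstt4 stood at 4.37, 6.01, 6.13 and 5.97 in wild type and 5.01, 4.95, 4.67, 4.78 and 4.86 in knockout aortas. Wild type replicate 1 lay below all knockout arrays while the other wild type arrays lay above them all, and the difference of −0.77 (SE 0.33) had an adjusted p of 0.241 (limma). Without wild type replicate 1 the difference was −1.18, with an adjusted p of 0.00284 (limma), in a fit where 7.34% of all tested genes passed 0.05. The signal of Gstt4 was dim, with knockout values of 4.67 to 5.01 close to the floor of 4. Gstt1 stood at 12.23, 12.03, 12.14 and 12.19 in wild type and 12.14, 12.33, 12.19, 12.28 and 12.24 in knockout aortas, with a difference of 0.089 (SE 0.063), and the groups overlapped. Gstt2 had a difference of 0.032 with an interval of −0.18 to 0.24. These 4 genes are direct neighbours on chromosome 10 in the order Gstt3, Gstt1, Gstt4 and Gstt2.

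Transferases of the alpha, omega, zeta, kappa and microsomal kinds mostly lay lower, as did the adipocyte markers. Gsta4, which conjugates the lipid aldehyde 4-hydroxynonenal, stood at 10.94, 10.97, 10.39 and 10.64 in wild type and 10.31, 10.73, 10.54, 10.33 and 9.87 in knockout aortas. Gsta3 stood at 6.86, 6.92, 6.41 and 7.35 in wild type and 6.59, 6.92, 7.07, 7.27 and 5.98 in knockout aortas. Knockout replicate 5 was the lowest array for both, and the differences were −0.38 (SE 0.18) for Gsta4 and −0.12 (SE 0.27) for Gsta3, with adjusted p-values of 0.284 and 0.839 (limma).

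Mgst1, a membrane-bound transferase and peroxidase, stood at 12.11, 12.28, 12.14 and 12.39 in wild type and 12.01, 12.04, 12.20, 12.08 and 11.64 in knockout aortas. Mgst2 stood at 7.31, 7.94, 7.95 and 8.01 in wild type and 7.04, 7.74, 7.66, 7.69 and 6.92 in knockout aortas. Knockout replicate 5 was again the lowest, and for Mgst2 knockout replicate 1 came next. The differences were −0.24 (SE 0.11) and −0.39 (SE 0.22), with adjusted p-values of 0.283 and 0.352 (limma), and Mgst3 had a difference of −0.13 (adjusted p 0.679, limma).

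Gsto1, which reduces dehydroascorbate, stood at 10.57, 11.03, 10.84 and 10.95 in wild type and 10.60, 10.64, 10.82, 10.72 and 10.54 in knockout aortas, a difference of −0.18 (SE 0.10) with an adjusted p of 0.341 (limma). Gstp1, a very strongly detected transferase in this tissue, stood at 12.73, 12.64, 12.68 and 12.62 in wild type and 12.77, 12.76, 12.77, 12.73 and 12.74 in knockout aortas. Its groups did not overlap, but they met at 12.73, the difference was only 0.091 (SE 0.046) and the adjusted p was 0.307 (limma); Gstp1 has a near-identical neighbour, Gstp2, whose transcripts could share the signal. Gstz1, Gstk1, Gstp3 and Gsto2 had differences of −0.23, −0.092, −0.28 and 0.093, all with adjusted p-values of at least 0.39. Gsta2 did not reach the floor, at 2.97 to 3.82.

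The mean of the 8 adipocyte markers was 10.98, 11.33, 11.28 and 11.45 on the wild type arrays and 10.81, 11.11, 11.27, 11.26 and 10.40 on the knockout arrays. All 8 were lower in the knockout, 2 of them at an unadjusted p under 0.05, and Adipoq, Fabp4, Lpl and the rest were all over the floor. The 7 brown adipocyte markers over the floor were lower as well, 3 of them at an unadjusted p under 0.05 (limma). Their means per array were 10.55 to 11.30 in wild type and 9.85 to 10.64 in knockout aortas. The part of brown fat was not tested. Knockout replicate 5, with least adipocyte signal, was the lowest of the 9 arrays for 21 of the 48 members. That array also had the lowest median over all probe sets, 5.88. The same count was not made over all tested genes, and the part of fat in it was not tested.

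With the adipocyte mean as a covariate, the differences of all 26 members that were lower moved upward, and 6 of them went above 0. Of the 22 members that were higher, 11 became larger with it and 0 went below 0. These moves were not counted over all tested genes. All 8 markers were themselves lower in the knockout, so covariate and genotype overlapped, and the part of fat was not tested. Mgst2 went from −0.39 to −0.066, Mgst1 from −0.24 to −0.078, Gstz1 from −0.23 to 0.0046 and Gsta3 from −0.12 to 0.25. Srxn1 and Hmox1 moved less, to −0.32 and −0.39, with unadjusted p-values of 0.0262 and 0.0228 (limma). Gstm1, Gstm2 and Gstm7 stood at 0.27, 0.29 and 0.28. These 5 genes were the members with an unadjusted p under 0.05 in that fit, 3 higher and 2 lower, where 6.90% and 3.90% of all tested genes were, and no member passed the adjusted threshold.

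**Figure D3:**
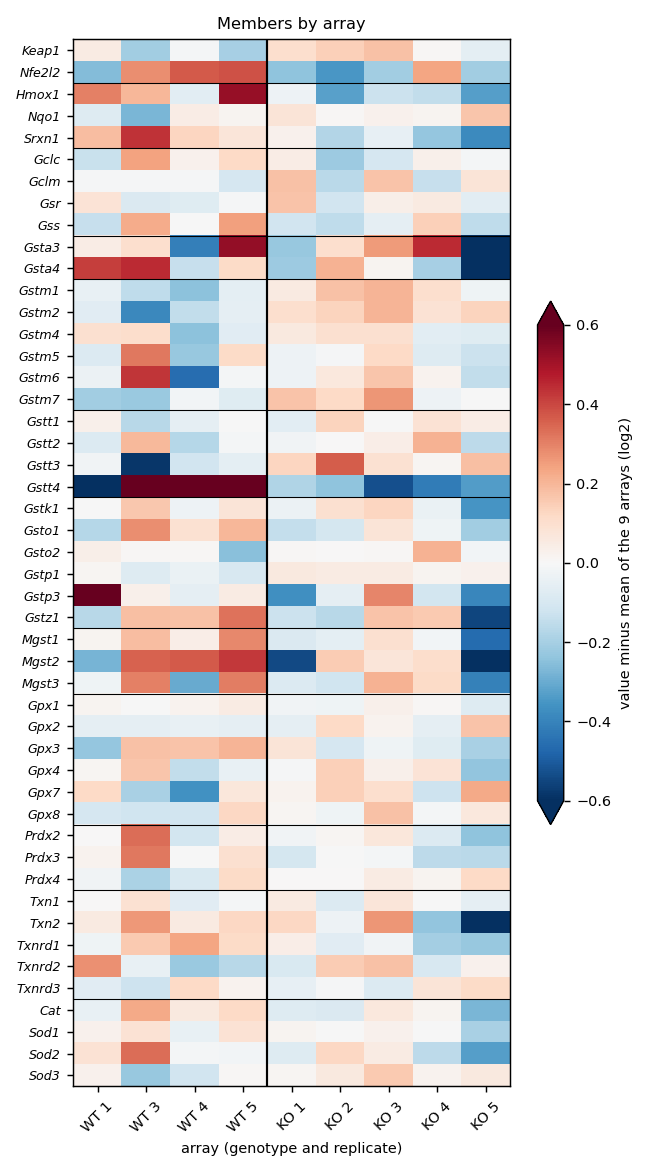
Value of each tested member on each array minus its mean over the 9 arrays (log2), red for higher and blue for lower; colours are capped at 0.6 and lines part the roles. Knockout replicate 5 carries the lowest value of 21 members, among them Gsta3, Gsta4, Mgst1, Mgst2, Gstz1, Txn2 and Sod2. The same count was not made over all tested genes.

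**Figure D4:**
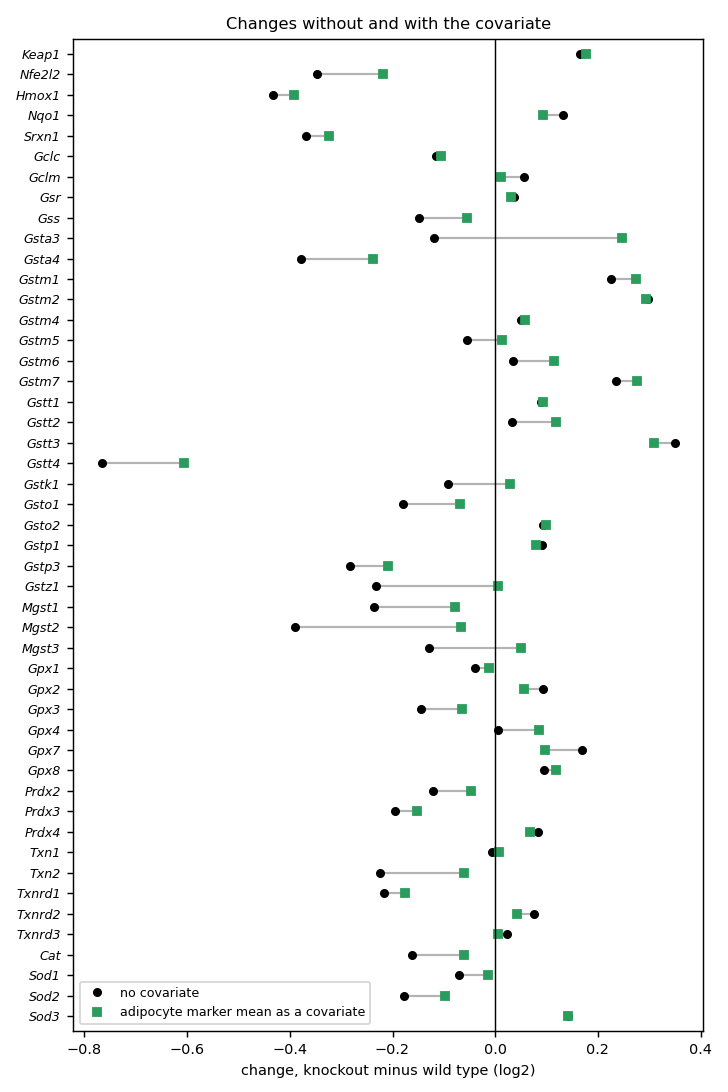
Difference of each tested member (knockout minus wild type, log2) without a covariate (black circles) and with the mean of 8 adipocyte markers as a covariate (green squares). All 26 members below 0 moved to the right, Mgst2 from −0.39 to −0.066, while Srxn1, Hmox1 and the mu genes Gstm1, Gstm2 and Gstm7 moved little, Srxn1 from −0.37 to −0.32.

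Glutathione peroxidases showed no member at an unadjusted p under 0.05. Gpx3, the secreted plasma form, stood at 12.90, 13.31, 13.30 and 13.34 in wild type and 13.21, 13.03, 13.11, 13.06 and 12.94 in knockout aortas, and its difference was −0.14 (SE 0.10) with an adjusted p of 0.455 (limma). Wild type replicate 1 lay below every knockout array while the other wild type arrays lay above them, and without that array the difference was −0.25 with an adjusted p of 0.0686 (limma). Gpx7, which acts in the endoplasmic reticulum, stood at 9.17, 8.86, 8.69 and 9.12 in wild type and 9.08, 9.20, 9.16, 8.93 and 9.28 in knockout aortas, a difference of 0.17 (SE 0.11). Gpx2, known from the gut lining, stood at 4.58, 4.58, 4.59 and 4.58 in wild type and 4.58, 4.75, 4.65, 4.58 and 4.80 in knockout aortas, close to the floor, a difference of 0.093 (SE 0.062).

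Gpx1, the main cytosolic form, had a difference of −0.038 with an interval of −0.14 to 0.066. Gpx4, which reduces lipid hydroperoxides in membranes, had one of 0.0051 with a wider interval of −0.20 to 0.21. Gpx8 had a difference of 0.096 with an interval of −0.066 to 0.26. Gpx5 and Gpx6, known from epididymis and olfactory tissue, did not reach the floor, with values of 2.79 to 3.40 and 2.52 to 2.92.

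Among peroxiredoxins the mitochondrial Prdx3 stood at 11.17, 11.47, 11.15 and 11.25 in wild type and 11.04, 11.15, 11.14, 10.99 and 10.99 in knockout aortas. The knockout arrays reached up to the lowest wild type value, and the difference was −0.19 (SE 0.078) with an interval of −0.37 to −0.019 and an adjusted p of 0.216 (limma). Without wild type replicate 3, the highest array, it was −0.13. Prdx4, the secretory form, stood at 12.34, 12.17, 12.26 and 12.47 in wild type and 12.36, 12.36, 12.41, 12.37 and 12.48 in knockout aortas, a difference of 0.084 (SE 0.068) with an adjusted p of 0.518, and Prdx2 had a difference of −0.12 with an interval of −0.35 to 0.10 (limma). The 5 probe sets of Prdx1 also carry the symbol Gm21399 and were left out by the rule.

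Thioredoxin reductase 1 (Txnrd1), the cytosolic enzyme and an NRF2 target, stood at 10.84, 11.02, 11.10 and 10.98 in wild type and 10.91, 10.80, 10.84, 10.66 and 10.64 in knockout aortas. Wild type replicate 1 was the only wild type array within the knockout range. The difference was −0.22 (SE 0.079) with an interval of −0.40 to −0.039 and an adjusted p of 0.188 (limma), and its 2 dimmer probe sets were also lower.

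Txn2, the mitochondrial thioredoxin, stood at 9.35, 9.55, 9.35 and 9.42 in wild type and 9.42, 9.26, 9.56, 9.06 and 8.67 in knockout aortas, a difference of −0.22 (SE 0.16) that was −0.061 with the adipocyte covariate. Knockout replicate 5 alone lay far below the other arrays. Txn1, the cytosolic thioredoxin, stood at 12.56, 12.65, 12.49 and 12.55 in wild type and 12.61, 12.48, 12.63, 12.55 and 12.50 in knockout aortas, a difference of −0.0065 (SE 0.057) with an interval of −0.14 to 0.12. Txnrd2 and Txnrd3 had differences of 0.075 and 0.023.

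Of the enzymes that remove superoxide and hydrogen peroxide, Sod3, the extracellular form bound to the arterial matrix, stood at 12.04, 11.79, 11.90 and 12.02 in wild type and 12.03, 12.08, 12.18, 12.04 and 12.08 in knockout aortas. Its difference was 0.14 (SE 0.067) with an interval of −0.010 to 0.29 and an adjusted p of 0.278 (limma), and a dimmer probe set gave −0.078 (SE 0.13). Cat, peroxisomal catalase, stood at 12.03, 12.30, 12.14 and 12.19 in wild type and 12.00, 11.99, 12.14, 12.09 and 11.80 in knockout aortas, a difference of −0.16 (SE 0.084) with an adjusted p of 0.31 (limma), which was −0.060 with the adipocyte covariate. The groups overlapped for both genes.

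Sod1, the cytosolic copper-zinc form, stood at 13.52, 13.57, 13.45 and 13.58 in wild type and 13.51, 13.49, 13.51, 13.49 and 13.30 in knockout aortas. Knockout replicate 5 was the lowest array, and the difference was −0.071 (SE 0.063) with an interval of −0.21 to 0.071. Its 4 tested probe sets differed in sign: the third brightest showed 0.19 (SE 0.073) with groups that did not overlap (limma, adjusted p 0.216 over all tested probe sets). The mitochondrial Sod2 had a difference of −0.18 (adjusted p 0.394, limma), and all 4 of its tested probe sets were lower, at −0.18 to −0.32.

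Of the 22 members with more than 1 tested probe set, 15 showed a single sign on all of them and 7 did not (Keap1, Gclm, Gsr, Gpx4, Txnrd3, Sod1 and Sod3). The highest adjusted p over 4 probe sets was 0.243 for Srxn1 and 0.302 for Gstm1 (limma, over all 26504 tested probe sets).

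**Figure D5:**
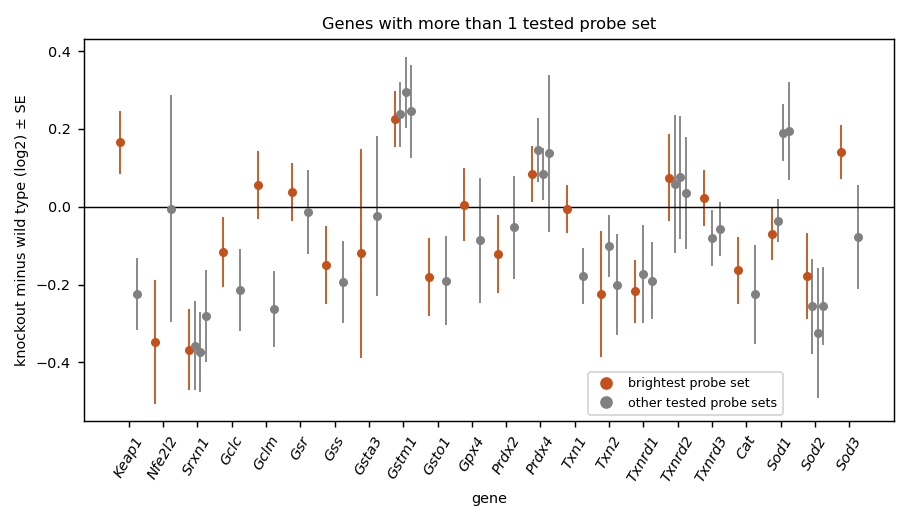
Difference (knockout minus wild type, log2) ± SE for every tested probe set of the 22 members with more than 1, the brightest in orange and the others in grey. The 4 probe sets of Srxn1 lie between −0.28 and −0.37 and those of Gstm1 between 0.23 and 0.29, while those of Sod1, Gclm and Keap1 lie on both sides of 0.

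Genes around these pathways were read from 7 lists of non-members, chosen with earlier results of these data known. Of all tested genes, 12.8% were higher and 7.12% lower at an unadjusted p under 0.05 (limma). The lists were not tested as lists. Among 11 partners and repressors of NRF2, 2 were higher and 9 lower, with a median difference of −0.072; 0 passed the adjusted threshold in limma, and 1 was higher and 2 lower at an unadjusted p under 0.05. The difference was 0.31 (SE 0.097, adjusted p 0.154, limma) for Dpp3, which can displace NRF2 from KEAP1. For Maff, a small MAF partner, it was −1.09 (SE 0.37, adjusted p 0.173, limma). Wild type replicate 1 of Maff, at 7.37, lay within the knockout range of 6.99 to 8.05, below the other wild type arrays. Sqstm1, the autophagy receptor that binds KEAP1, had a difference of −0.14 (SE 0.050, adjusted p 0.179, limma). The 14 tested other NRF2 targets had a median of 0.055, with 8 higher and 6 lower, 0 past the threshold in limma and 2 higher at an unadjusted p under 0.05. Differences there were 0.25 (SE 0.073, adjusted p 0.148) for the drug exporter gene Abcc1, 0.21 (SE 0.086, adjusted p 0.233) for the aldehyde oxidase Aox1 and −0.32 (SE 0.16, adjusted p 0.29) for the exporter Abcc4.

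Genes that supply or break down glutathione were lower in 12 of 15, with a median of −0.15. At an unadjusted p under 0.05 (limma), 5 were lower and 1 higher, where 7.12% and 12.8% of all tested genes were. The difference was −0.38 (SE 0.058, adjusted p 0.0794) for Cndp2, which splits the cysteinylglycine left by glutathione breakdown, and −0.96 (SE 0.23, adjusted p 0.131) for Chac1, which cleaves glutathione in the cytosol. For Cbs, which starts the route from homocysteine to cysteine, it was 0.66 (SE 0.16, adjusted p 0.129). Cbs was higher on every knockout array than on any wild type array, as were 4.59% of all tested genes. None of the 15 passed the adjusted threshold in limma. With the adipocyte covariate the median of this list was −0.077.

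NADPH, which glutathione and thioredoxin reductases use, comes from several dehydrogenases and a transhydrogenase. The list also held the NAD kinase genes Nadk and Nadk2. Of its 13 tested genes, 1 passed the threshold. This was Nnt, the mitochondrial transhydrogenase, higher by 0.70 (SE 0.078) with an adjusted p of 0.0231 (limma). Its levels were 11.90 ± 0.16 in wild type and 12.60 ± 0.042 in knockout aortas (SD, n = 4 and 5). Nnt is known to be mutated in the substrain C57BL/6J. The labels name no substrain, so a substrain difference between the groups and the loss of Ptgds cannot be told apart here. The folate dehydrogenase genes had differences of opposite sign, 0.42 (SE 0.11, adjusted p 0.134) for Aldh1l2 of mitochondria and −0.77 (SE 0.21, adjusted p 0.135) for Aldh1l1 of the cytosol. The list had 4 higher and 9 lower, 3 of each at an unadjusted p under 0.05, with a median of −0.10 that was −0.0046 with the adipocyte covariate.

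The remaining 3 lists had 0 genes past the threshold in limma. Of 15 glutaredoxins, thioredoxin partners and methionine sulfoxide reductases, 11 were lower (median difference −0.057), and 1 was higher and 1 lower at an unadjusted p under 0.05. With the adipocyte covariate that median was −0.0023. Nucleoredoxin (Nxn) had a difference of 0.22 (SE 0.089, adjusted p 0.218), Txnip, which binds thioredoxin, one of −0.22 (SE 0.091, adjusted p 0.23) and Txndc12 one of −0.10 (SE 0.065, adjusted p 0.419). Of 14 genes of selenoprotein synthesis and other selenoproteins, 7 were higher and 7 lower (median 0.020), with 3 higher at an unadjusted p under 0.05. These were the selenocysteine elongation factor Eefsec, with a difference of 0.32 (SE 0.12, adjusted p 0.195), Sephs1 with 0.18 (SE 0.074, adjusted p 0.222) and Selenom with 0.29 (SE 0.12, adjusted p 0.223). Of 11 oxidant-producing enzymes, 5 were higher and 6 lower (median −0.080), with 1 higher and 2 lower at an unadjusted p under 0.05. Xanthine dehydrogenase (Xdh) had a difference of −0.33 (SE 0.071, adjusted p 0.106). Xdh was lower on every knockout array than on any wild type array, as were 2.16% of all tested genes. The NADPH oxidase organiser Noxo1 had a difference of 0.41 (SE 0.16, adjusted p 0.206) and the phagocyte oxidase subunit Ncf1 one of −0.64 (SE 0.28, adjusted p 0.247).

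Single arrays moved the members' calls. Without wild type replicate 1, 2 members passed the adjusted threshold, Gstm2 (0.33, adjusted p 0.0482) and Gstt4, in a fit where 7.34% of all tested genes passed (limma); the members' share of 4.17% was below that. Without any other single array 0 members passed. Of the 48 members 39 kept their sign in all 9 fits that leave out 1 array, and 9 did not. Across these fits the difference ran from −0.42 to −0.29 for Srxn1, −0.53 to −0.34 for Hmox1, 0.19 to 0.26 for Gstm1, 0.22 to 0.33 for Gstm2, 0.19 to 0.27 for Gstm7 and 0.22 to 0.41 for Gstt3. The lower end for Gstt3, and for Gstm2, came without wild type replicate 3.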

How the data were processed

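Total RNA of single aortas was hybridised to Affymetrix mouse arrays, and the submitters' processing notes name GCRMA, which corrects background, normalizes and summarises per probe set, for the log2 values the authors deposited. The log2 scale is not stated and was inferred from the values, which run from 1.75 to 14.81. Of the deposited columns 1, that of wild type replicate 2, held no values and was not used. Probe sets with 1 gene symbol were kept (34945 of 45101), and each gene was read from its brightest probe set. Genes over 4 on at least 4 of 9 arrays were fitted over both groups with limma 3.58.1 (R 4.3.3), with Benjamini-Hochberg adjustment over all 14321 tested genes and a threshold of 0.05; the fit was tested on simulated data. GCRMA pulls dim probe sets to shared low values, so differences near the floor are compressed, and levels of different probe sets were not set against each other. Probe sets with several symbols that name a member, 6 in all, were left out.

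Named genes were the regulators, classical targets and synthesis genes, the brightest member and the 2 lowest p-values of each role, members whose groups did not overlap, and the 3 lowest p-values of each further list. Members and lists were chosen with earlier results of these data known. Alternatives varied scaling, floor, probe set, variance prior, array weights, an adipocyte covariate, the replicate number as a block and single arrays; a fit without the 2 arrays richest in neuronal transcripts was chosen after seeing the data. Promoter sequences are RefSeq's on GRCm38.p6.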

Additional observations from a re-analysis of the deposited data

Results flagged for a closer look

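Among the 62 groups of 4 or 5 arrays examined, for the members named with values, 9 held an array far from the others by Dixon's criterion, which chance alone meets in about 1 of 20 groups. Wild type replicate 1 stood apart 4 times, at 10.59 for Nfe2l2 (others 11.13 to 11.23), 12.90 for Gpx3 (others 13.30 to 13.34), 7.31 for Mgst2 (others 7.94 to 8.01) and 4.37 for Gstt4 (others 5.97 to 6.13), each time below the other wild type arrays. Knockout replicate 4 stood apart for Nfe2l2 at 11.08, above the other knockout arrays at 10.50 to 10.64. Knockout replicate 5 lay at 13.30 for Sod1, below the others at 13.49 to 13.51. Wild type replicate 3 lay at 7.87 for Gstt3, below the others at 8.33 to 8.43. For Gclm, wild type replicate 5 lay at 8.60 while the other wild type arrays held the same value, 8.70. For Gpx2, wild type replicate 4 lay at 4.59 while the others held the same value, 4.58, so that gap is tiny on the log2 scale.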

How the results depend on the processing

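No member passed the adjusted threshold of 0.05 in any setting but the fit without wild type replicate 1. With the report's settings none passed 0.1 either. Gstm2 did with array weights (0.0643), a trended robust prior (0.0874) and a floor of 6 (0.0948). Gstm1 and Gstt4 did with array weights (0.0798 and 0.0869) and Hmox1 with the floor of 6 (0.0996). Without wild type replicate 1, Nfe2l2 (0.0535), Gpx3 (0.0686), Gstm1 (0.079), Txnrd1 (0.0797), Gsto1 (0.0814) and Srxn1 (0.0916) also passed 0.1. In that fit 7.34% of all tested genes passed 0.05. All these are adjusted p-values of limma. Leaving out 1 array in turn gave 0 to 2 members past the adjusted threshold of 0.05. At an unadjusted p under 0.05 (limma), 4 to 7 members were higher and 3 to 11 lower in these fits. Of all tested genes, 8.38 to 17.8% were higher and 4.8 to 8.27% lower, and both upper ends came without wild type replicate 1. The count lower was 2 with the adipocyte covariate (3.90% of all tested genes) and 3 without the 2 arrays richest in neuronal transcripts (5.52%). With the replicate block, 2 members were higher and 6 lower (7.63% and 6.08% of all tested genes), and the members' median difference was −0.049. Deviations of same-numbered arrays correlated at −0.36, −0.15, 0.06 and 0.21. These were not compared with arrays of different numbers, so they cannot decide whether the numbers pair the arrays. The members' median stayed within −0.10 to 0.012 over all settings. Over all genes, where 8 were called, counts were 19 with a floor of 6, 33 with a trended robust prior, 73 with array weights, 2 with the covariate, 0 with the block (1092 higher and 871 lower at an unadjusted p under 0.05), 3 without the 2 neuron-rich arrays, 1051 without wild type replicate 1 and 2 to 16 without any other array. Causes of these shifts were not tested.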
